A study of Mus musculus with 2 samples.

Results

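The Rtl1-antisense miRNA genes are Mir431, Mir433, Mir127, Mir434 and Mir136, which lie on the plus strand of mouse chromosome 12, opposite the coding sequence of Rtl1. They were found by gene symbol in the GENCODE M21 annotation, with no measured value in the rule. Of these 5 genes, 4 had a row under their M21 identifier among the 1973 miRNA genes counted, and Mir136 had none. The material was neural tube, the embryonic precursor of brain and spinal cord, dissected at 12.5 days from B6NCrl mouse embryos. The single group holds 2 biological replicates, a pool of 120 embryos (replicate 1) and a pool of 88 embryos (replicate 2), each with males and females mixed. Both pools were labelled healthy, carry no engineered allele or treatment in the labels, and name the same donor entry. Small RNA under 30 in size range was sequenced once per pool, and there is no second tissue, age or treatment to set the genes against.

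Imprinted genes are read from the chromosome inherited from 1 parent. In the Dlk1-Dio3 domain, Rtl1, a retrotransposon-derived gene needed in the placenta and fetal capillaries, is expressed from the paternal chromosome. The miRNAs opposite it are cut from a long noncoding transcript of the maternal chromosome that belongs to the same unit as Meg3, Rian and Mirg. Because they are read from the other strand of the same sequence, they pair perfectly with the Rtl1 mRNA and can direct its cleavage, which is known best for the mouse placenta. The count tables hold no allele information, so the parental origin of the reads was not measured.

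The mature sequences are shown because a gene's count holds both arms of its hairpin and the arms cannot be told apart in it. They are the RefSeq mature miRNAs of GRCm38.p6, which matched all 5 genes by symbol and gave 10 mature sequences, all on the plus strand. They are written 5′ to 3′ with the seed, bases 2 to 8, in capitals.
miR-431-5p (chr12:109590459-109590479): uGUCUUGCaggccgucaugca
miR-431-3p (chr12:109590502-109590523): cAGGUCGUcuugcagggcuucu
miR-433-5p (chr12:109591729-109591750): uACGGUGAgccugucauuauuc
miR-433-3p (chr12:109591781-109591802): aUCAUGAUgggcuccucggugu
miR-127-5p (chr12:109592854-109592875): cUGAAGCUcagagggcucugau
miR-127-3p (chr12:109592888-109592909): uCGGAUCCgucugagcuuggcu
miR-434-5p (chr12:109594528-109594549): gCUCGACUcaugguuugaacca
miR-434-3p (chr12:109594565-109594586): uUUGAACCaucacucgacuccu
miR-136-5p (chr12:109595331-109595352): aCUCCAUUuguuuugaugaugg
miR-136-3p (chr12:109595366-109595387): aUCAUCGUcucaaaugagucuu

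Each of the 10 seeds occurred once in the group, and no mature miRNA of another gene in the RefSeq table carried any of them. The genes therefore form no seed family, although they share a locus. In the GENCODE M21 transcripts, the perfect complement of each of the 8 mature sequences from Mir431, Mir433, Mir127 and Mir434 was found in Rtl1 and in no other gene. The complement of both Mir136 arms was found in Rtl1 and in Mir3071, a miRNA gene annotated on the minus strand over Mir136.

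All 5 hairpins lay wholly inside the Rtl1 coding sequence of 5232 bases, which runs on the minus strand from base 109595403, where its start codon begins, to base 109590172 (mm10). Counted from the first base of the Rtl1 start codon, the hairpins cover coding bases 16 to 77 (Mir136), 805 to 898 (Mir434), 2489 to 2558 (Mir127), 3566 to 3689 (Mir433) and 4867 to 4957 (Mir431). Gaps of 727 to 1590 bases separate neighbouring genes of the group, and the whole group spans 4942 bases. As an example of the pairing, the Rtl1 coding bases 2495 to 2516 that miR-127-3p matches are shown in the sense of the Rtl1 mRNA, with the complement of the seed in capitals.
Rtl1 site of miR-127-3p: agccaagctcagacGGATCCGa

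The hairpins differ among themselves in sequence. RNAfold gave minimum free energies between -44.8 kcal/mol (Mir433, 124 bases, 56.5% G and C) and -28.2 kcal/mol (Mir136, 62 bases, 40.3% G and C). Per base, with the sign reversed, this was 0.501 kcal/mol for Mir127, 0.477 for Mir431, 0.455 for Mir136, 0.398 for Mir434 and 0.361 for Mir433, against a median of 0.406 over the 1005 RefSeq hairpins. All 5 values lay between the 5th and 95th percentiles of those hairpins (0.261 and 0.600 kcal/mol per base). The arms of Mir431 and those of Mir434 share longer runs of bases than most hairpins. The 10-base run GUCUUGCAGG stands in both arms of Mir431, and a run this long is shared by the arms of 4 of 677 hairpins with 1 mature sequence per arm (0.591%). In Mir434 the 9-base run UUUGAACCA stands in both arms, and 9 of the 677 hairpins (1.33%) share a run at least this long. The arms of Mir433 and Mir127 share at most 5 bases and those of Mir136 at most 4, the median of all hairpins being 4.

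The 4 counted genes were all well detected in the neural tube, at a higher and a lower level. Mir127, which is known for its part in silencing Rtl1, and Mir431, known in mouse sensory neurons for promoting axon growth, averaged 4692.3 and 4252.4 own-strand reads per 1000000 miRNA gene reads (CPM). Mir433 and Mir434 averaged 827.3 and 870.5 CPM. Along the chromosome the levels alternate, with Mir431 and Mir127 high and Mir433 and Mir434 low. In bulk tissue, fewer cells of a type and less RNA per cell cannot be told apart.

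Mir127 (ENSMUSG00000070076, chr12:109592846-109592915) had 22062 reads in replicate 1 and 21188 in replicate 2, or 4593.9 and 4790.6 CPM, with a mean of 4692.3 ± 139.0 CPM (SD, n = 2). Mir127 stood at rank 42 of the 1973 genes in replicate 1 and rank 38 in replicate 2, the highest place of the group in both. Mir431 (ENSMUSG00000070080, chr12:109590447-109590537) had 20414 and 18815 reads, or 4250.8 and 4254.0 CPM, in replicates 1 and 2, with ranks 47 and 46. Its SD of 2.31 CPM between libraries was smaller than the counting error of either library, whose exact 95% intervals ran from 4192.8 to 4309.4 CPM and from 4193.6 to 4315.1 CPM. This small spread holds for plain CPM and not for other scalings, since the SD was 83.6 CPM with TMM and 92.1 CPM with median-of-ratios scaling.

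Mir434 (ENSMUSG00000070133, chr12:109594506-109594599) had 4101 reads in replicate 1 and 3923 in replicate 2, or 853.9 and 887.0 CPM, with a mean of 870.5 ± 23.4 CPM (SD, n = 2) and ranks 95 and 93. Mir433 (ENSMUSG00000070072, chr12:109591715-109591838) had 4263 and 3392 reads, or 887.7 and 766.9 CPM, with a mean of 827.3 ± 85.4 CPM and ranks 93 and 101. Mir433 was thus the more abundant of this pair in replicate 1 and Mir434 in replicate 2.

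**Figure D1:**
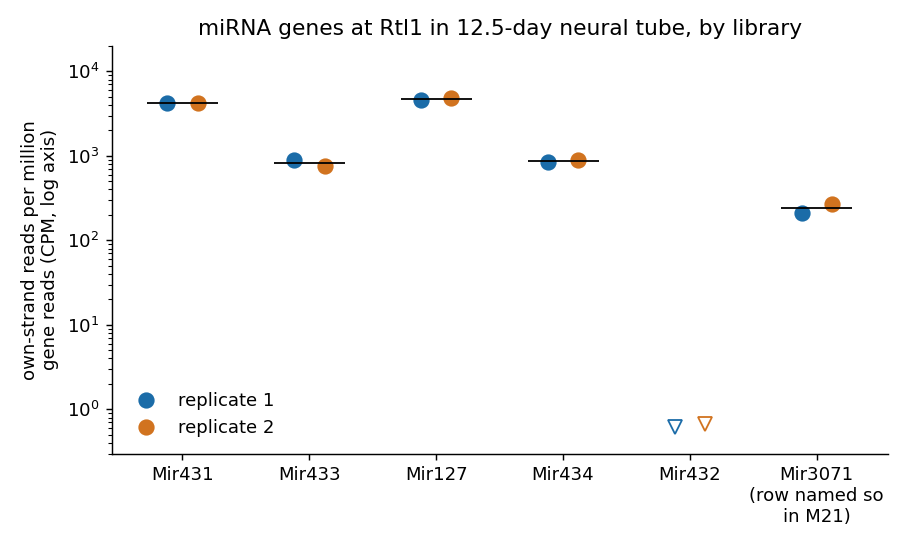
Own-strand CPM (log axis) of the miRNA genes that overlap Rtl1, in chromosomal order. Each point is 1 library, the bar is the mean, and open triangles mark the limit of 0.625 and 0.678 CPM that 0 reads allow. Mir431 and Mir127 lie between 4250.8 and 4790.6 CPM, Mir433 and Mir434 between 766.9 and 887.7 CPM, and Mir432 had no read.

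The order of the 4 genes by mean CPM was Mir127, Mir431, Mir434 and Mir433. The ratio of Mir127 to Mir431 was 1.08 in replicate 1 and 1.13 in replicate 2, with a mean of 1.10 ± 0.0321 in CPM, so that it was above 1 by more than its spread. Mir431 exceeded Mir434 by 4.89 ± 0.129 times in CPM. The ratio of Mir434 to Mir433 in CPM was 0.962 and 1.16, with a mean of 1.06 ± 0.138, so these neighbours in the order did not differ beyond their spread. Mir127 exceeded Mir433, the lowest of the group, by 5.71 ± 0.757 times in CPM.

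A read of this size range covers a whole mature miRNA, so CPM needs no correction for gene length, but the same ratios were also taken per kilobase of annotated gene. On that scale the order stayed the same and the gaps were wider, with 1.43 ± 0.0417 for Mir127 over Mir431, 5.05 ± 0.133 for Mir431 over Mir434 and 1.40 ± 0.181 for Mir434 over Mir433. The last of these is above 1 by more than its spread per kilobase and not in CPM, because the Mir433 hairpin has 124 bases and that of Mir434 has 94. How evenly different miRNAs are captured in such libraries was not measured, so these are ratios of reads. With 2 libraries, an exact sign-flip test of any order cannot go below p = 0.5, and none was run.

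The group divided its reads in nearly the same way in both libraries. The 4 genes together had 50840 reads in replicate 1 and 47318 in replicate 2, which made up 1.06% and 1.07% of all own-strand gene reads, or 1.06% ± 0.00793 (SD, n = 2). Of these reads Mir127 held 44.1% ± 0.978, Mir431 40.0% ± 0.276, Mir434 8.18% ± 0.159 and Mir433 7.78% ± 0.860. Mir127 and Mir431 together held 84.0% ± 0.702 of the group's reads. Mir433 held 8.39% in replicate 1 (exact 95% interval 8.15 to 8.63) and 7.17% in replicate 2 (6.94 to 7.40). These intervals do not overlap, while those of Mir434 do (7.83 to 8.31 and 8.04 to 8.54). The intervals cover counting error only, since copies made by PCR carry no molecular tag here.

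**Figure D2:**
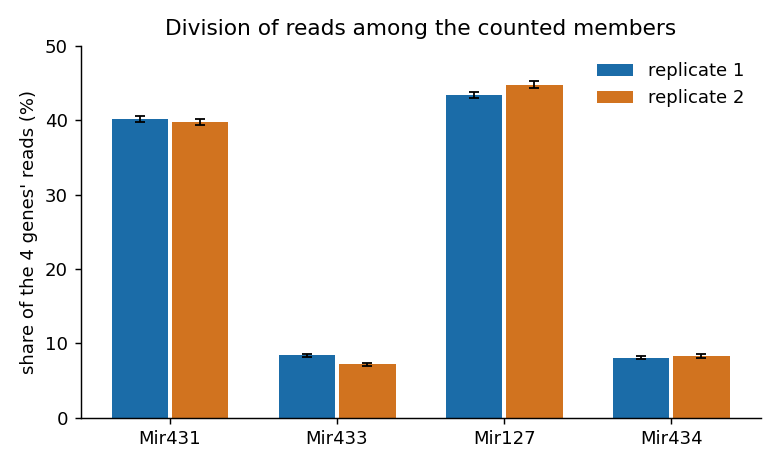
Share of the summed reads of the 4 counted genes (%, axis from 0) held by each gene in each library, with exact 95% binomial intervals as error bars. Mir127 held 43.4% in replicate 1 and 44.8% in replicate 2, and Mir433 is the gene whose share differs most in proportion, with 8.39% and 7.17%.

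All 4 counted genes had at least 10 reads in both libraries, as had 18.8% of all counted genes. Between the libraries none of the 4 was 1.5-fold apart in CPM, against 12.9% of the 371 detected genes. Mir433 differed most, by 1.16-fold with the higher level in replicate 1 (log2 ratio of replicate 1 to replicate 2 of 0.21). Mir127 was 1.04-fold apart (log2 ratio -0.06) and Mir434 also 1.04-fold (log2 ratio -0.05), both with the higher level in replicate 2. The median absolute log2 ratio was 0.06 over the 4 genes and 0.24 over all detected genes. Genes with many reads have less counting error than most detected genes. Among the 269 genes that reached 100 reads in each library, 8.92% were 1.5-fold apart.

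**Figure D3:**
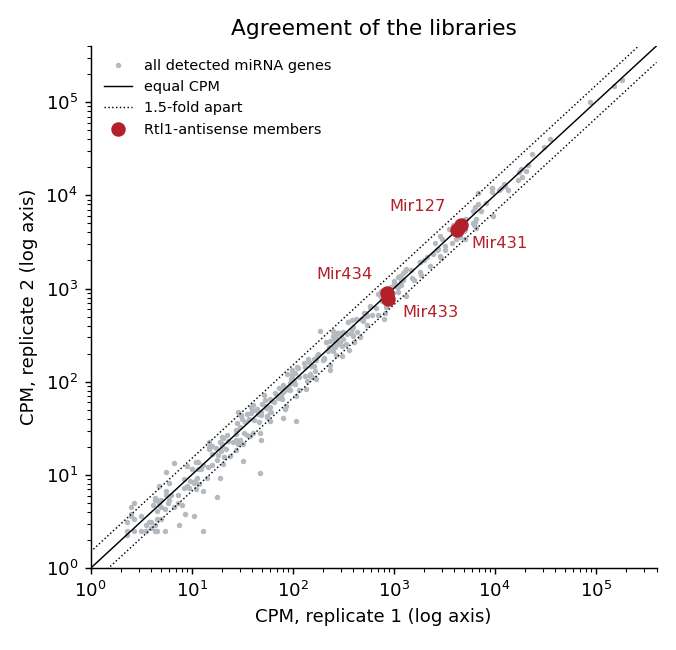
CPM of each detected miRNA gene in replicate 1 against replicate 2 (both log axes), with lines for equal CPM and for 1.5-fold apart. The 4 Rtl1-antisense genes lie between the dotted lines, with Mir433 farthest from the line of equal CPM at 887.7 CPM in replicate 1 and 766.9 CPM in replicate 2.

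Reads from the Rtl1 side of the locus were looked for in the column of opposite-strand reads. None of the 4 genes had such a read in either library. A count of 0 allows up to 0.00590% of the group's 50840 reads in replicate 1 and 0.00634% of the 47318 in replicate 2 (3 counts). Over all genes the opposite strand held 1.72% of gene reads in replicate 1 and 1.48% in replicate 2, and 87.6% of the 371 detected genes had 0 such reads in both libraries. The size range leaves out whole mRNA, so these counts do not measure the level of Rtl1.

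Besides the group, Mir432 and Mir3071 are annotated over Rtl1. Mir432 (ENSMUSG00000087855, chr12:109594956-109595030, plus strand) lies between Mir434 and Mir136 and had 0 reads on either strand in both libraries, so that its level could be as high as 0.625 CPM (replicate 1) or 0.678 CPM (replicate 2). The row with the identifier ENSMUSG00000070129, named Mir3071 in M21 and placed there on the minus strand at chr12:109595318-109595397, had 1022 reads in replicate 1 and 1176 in replicate 2. Its own-strand level was 212.8 CPM in replicate 1 and 265.9 CPM in replicate 2, with 0 and 1 reads on the opposite strand. The Mir136 hairpin (chr12:109595327-109595388) lies inside this interval on the other strand. The tables were counted with the older annotation M4, whose strand for this identifier is not given in the sources used here, so whether these reads belong to Mir136 or to Mir3071 cannot be told apart.

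For comparison, 4 other minus-strand genes of the domain overlap a plus-strand miRNA gene that has no row of its own, as Mir3071 does. At Mir299b, opposite Mir299a, 0.258% of reads in replicate 1 and 0.265% in replicate 2 were counted on the gene's own strand. Gm25750, Gm25252 and Gm24321 (opposite Mir380, Mir376a and Mir409) had 0 own-strand reads in both libraries. At the Mir3071 row, all reads in replicate 1 and 99.9% in replicate 2 were own-strand reads. These 5 rows thus fall on different sides of the count columns, with Mir3071 alone on the own-strand side. Their minus strand is that of M21, while the columns follow M4, so this does not place the Mir3071 reads on a strand.

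The Rtl1-antisense genes were then set beside the other plus-strand miRNA genes between Dlk1 and Dio3, which belong to the same noncoding unit. The 4 genes had a median of 2561.4 CPM (mean of both libraries, range 827.3 to 4692.3). That median lies in the gap between the higher and the lower genes, where none of the 4 stands. It leaves out Mir432, a counted plus-strand gene over Rtl1 without a read, while the medians of the sides that follow include genes without a read. The 9 counted genes between Dlk1 and Rtl1, the side of Meg3, had a median of 110.6 CPM, with 6 detected. The 39 counted genes between Rtl1 and Dio3, the side of Rian and Mirg, had a median of 154.0 CPM, with 34 detected. Over detected genes alone the medians were 321.6 CPM on the Dlk1 side, 273.3 CPM on the Dio3 side and 114.7 CPM over all 371 detected genes. The difference between the sets was not tested, since the libraries are the only replicates.

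Single neighbours reached the same levels. On the Dlk1 side, Mir337 had 802.7 and 896.9 CPM in replicates 1 and 2 (mean 849.8 ± 66.6 CPM, n = 2), and by its mean it was the single gene of the 9 to reach the lowest level of the group. Mir540 (474.8 ± 5.48 CPM), Mir770 (336.0 ± 97.3 CPM) and Mir665 (307.1 ± 40.9 CPM) followed. On the Dio3 side, 10 of the 39 counted genes were at or above Mir433 and 3 above Mir127. These 3 were Mir487b with 8144.2 and 8181.8 CPM in replicates 1 and 2, Mir369 with 4690.8 and 5043.6 CPM, and Mir411 with 5036.4 and 4355.1 CPM. The means of Mir369 (4867.2 ± 249.5 CPM) and Mir411 (4695.8 ± 481.8 CPM) differed from that of Mir127 by less than their own spread. Mir382, next among the counted genes on that side, had 3407.5 ± 502.0 CPM. M21 lists 44 plus-strand miRNA genes there, and those without a row are not ranked here. Opposite-strand reads at Gm24321, which overlaps Mir409, averaged 5414.7 CPM, above Mir127. Those at Gm25252 (over Mir376a, 1783.2 CPM) and Mir299b (over Mir299a, 868.8 CPM) were above Mir433. Those at Gm25750 (over Mir380, 805.6 CPM) were below it.

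**Figure D4:**
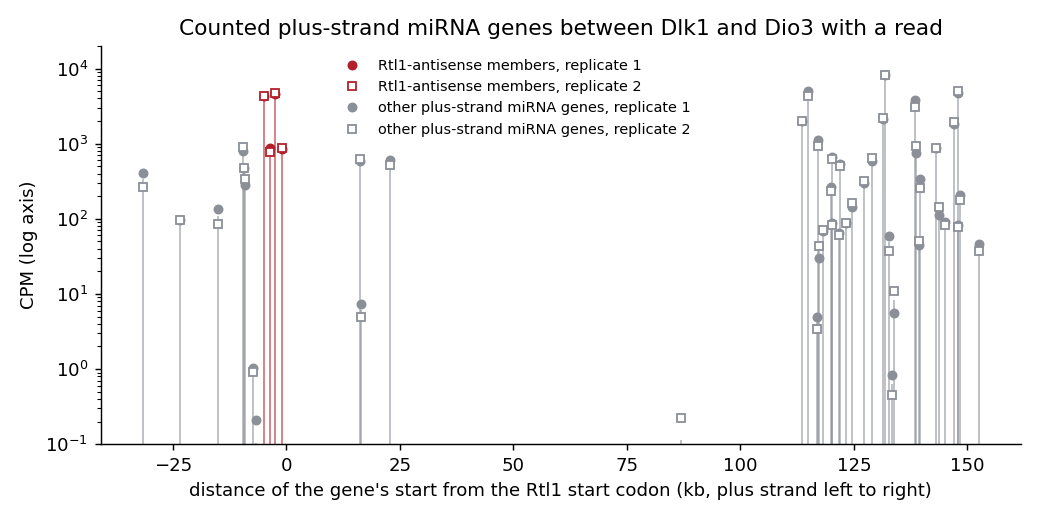
CPM (log axis) of the counted plus-strand miRNA genes between Dlk1 and Dio3 that had a read, by distance of the gene's start from the Rtl1 start codon in kilobases. Filled circles are replicate 1 and open squares replicate 2, with lines down from the mean. The Rtl1-antisense genes, in red, lie just left of the start codon and stand at 766.9 to 4790.6 CPM, above most genes on either side.

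As a share of the own-strand reads of all 53 counted plus-strand genes of the domain, the 4 genes held 22.0% in replicate 1 and 22.7% in replicate 2 (22.3% ± 0.483, n = 2), while they are 7.55% of those genes. The opposite-strand reads at Mir299b, Gm25750, Gm25252 and Gm24321 are not in this total. With all reads of the 5 overlapping minus-strand rows added to it, the share was 18.7%, a calculation added once the data had been seen. The Mir3071 row was added to the total alone, although its reads may belong to Mir136, a listed member. Of the 53 genes, 7 share a run of 20 bases with another miRNA gene. A read with several mapped places is in no gene's count. None of the 4 Rtl1-antisense genes shares such a run on its own strand. Among the 46 genes without a shared run, the 4 held 30.9% of the reads. Leaving out the 7 genes takes their reads from the total, so the share could only rise. Their multiply mapped reads, which are in neither total, were not measured.

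The range of log2 ratios between the libraries was -0.06 to 0.21 for the 4 genes, -0.27 to 0.70 for the 6 detected genes on the Dlk1 side and -0.95 to 0.65 for the 34 detected on the Dio3 side. On each side 2 genes were 1.5-fold apart or more, and none of the group was, against 12.9% of all 371 detected genes. A range widens with more genes and with fewer reads, and the value of -0.95 was Mir544 with 27 and 48 reads. The ranges therefore do not show that the group is steadier than its neighbours. With no second condition, likeness to other genes could be taken only as likeness of level over the 2 libraries, measured as Euclidean distance in log2(CPM + 1) among 370 other detected genes. The nearest gene was Mir30d for Mir127 (distance 0.049), Mir181d for Mir431 (0.052), Mir154 for Mir434 (0.059) and Mir153 for Mir433 (0.154). Mir154 is itself a gene of the Dio3 side, with 880.8 and 863.2 CPM in replicates 1 and 2.

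The totals behind these values were 4802411 own-strand gene reads (replicate 1) and 4422853 (replicate 2), and 27.0% and 28.6% of all reads were set aside as mapping to several places. Of 8 counted marker genes of neural tissue, 6 were detected, with a summed level of 10226.5 CPM in replicate 1 and 8694.6 CPM in replicate 2, led by Mir219a-2 and Mir137. The genes of the neuronal Mir124a and the progenitor Mir9 averaged 1.52 to 283.1 CPM, and the listed Mir9-1 was not matched to a row. Both miRNAs have several gene copies, and reads placed at more than 1 copy are in none of these values, which therefore do not give the full level of either miRNA. Of 16 marker genes of other cell types, 15 were detected, with a summed level of 34698.8 CPM in replicate 1 and 30772.4 CPM in replicate 2, most of it from the endothelial Mir126a. Next came the mesenchymal Mir214 and Mir140, with means of 5533.4 and 4899.9 CPM, beside 5544.4 CPM for Mir219a-2. The third mesenchymal gene, Mir199a-2, averaged 48.6 CPM. Of the muscle genes, Mir206 had 811.1 CPM in replicate 1 and 469.8 CPM in replicate 2, Mir133b had 68 and 41 reads, and Mir1a-1 had 1 and 0 reads. Mir199a-2 and Mir1a-1 are also numbered copies, and reads placed at more than 1 copy are left out of their values too. Their low values therefore do not give the full level of those miRNAs. The part of these cell types in the levels of the Rtl1-antisense genes was not tested.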

How the data were processed

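The files deposited by the authors hold raw counts of reads for each miRNA gene, 1 table per library, in columns for both strands, own strand and opposite strand. Per the descriptions deposited with the counts, the assembly was mm10 and the annotation M4. No aligner, counter or trimming step is named there. Which column is own strand was read from the totals, of which it holds 98.3% and 98.5%. Rows that name no gene were left out of the totals. They include unmapped reads, 27.3% of all reads in replicate 1 and 20.0% in replicate 2, and reads on no feature, 8.04% and 4.45%.

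GENCODE M21, on the same assembly, supplied symbols and coordinates, and 1894 of 1973 identifiers matched without version. CPM is the own-strand count per 1000000 own-strand reads of all gene rows. Errors are SDs of the 2 libraries, and intervals are exact binomial (Clopper-Pearson, 95%). Detection took 10 reads or more in each library, and a fold of 1.5 was used between libraries. A single group allows no comparison of conditions, so no count model was fitted. TMM scaling (edgeR 4.0.16, R 4.3.3) and median-of-ratios scaling were alternatives. Sequences came from RefSeq (GRCm38.p6), and folds from RNAfold 2.7.2. Python 3.11.15, numpy 2.4.6, pandas 2.3.3, scipy 1.17.1 and matplotlib 3.10.9 were used. Genes named are the group, the genes over Rtl1, the 4 highest on each side, the nearest in level and genes of the marker lists. The minus-strand genes opposite Mir299a, Mir380, Mir376a and Mir409, and which marker genes to name, were chosen after their values were seen. The rule for the members uses no measured value, but the members and lists were chosen with earlier results of these data known.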

Additional observations from a re-analysis of the deposited data

Results flagged for a closer look

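Opposite-strand reads, which the levels above do not use, were present at 4 minus-strand genes of the same domain, above the limit that a count of 0 allows. Their opposite-strand level averaged 5414.7 CPM at Gm24321, 1783.2 CPM at Gm25252, 868.8 CPM at Mir299b and 805.6 CPM at Gm25750 over the 2 libraries. Each overlaps a plus-strand miRNA gene that has no row of its own, so these reads are in none of the own-strand values of the domain. Groups of 2 libraries were too small to look for single libraries that stand apart.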

How the results depend on the processing

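The group's summed share of gene reads was 1.05% with both strands counted, 0.640% when multiply mapped reads joined the denominator and 1.58% without the 2 most abundant genes. The multiply mapped reads lowered the 4 CPM values to 2824.5 (Mir127), 2558.0 (Mir431), 523.9 (Mir434) and 496.5 (Mir433), and counting both strands moved Mir431 to 4184.3 CPM, beyond its small SD. The share of the domain's reads was 30.9% without genes that share 20 bases and 18.7% with the overlapping minus-strand rows added to the total alone. Per kilobase of gene, the ratios were 1.43 for Mir127 to Mir431, 5.05 for Mir431 to Mir434 and 1.40 for Mir434 to Mir433. The ratio of Mir434 to Mir433 in CPM was 1.16 without replicate 1 and 0.962 without replicate 2, so it lay on either side of 1 and its direction depends on the library. Leaving out a replicate gave a summed share of 1.06% to 1.07% and a domain share of 22.0% to 22.7%. With 2 libraries such a value cannot lie outside the SD, so it does not test stability. The counts of 4 members detected and 0 members 1.5-fold apart were the same under every alternative run for them. TMM and median-of-ratios scaling moved the 4 mean CPM values by less than their SD, while the SDs themselves changed. These were 83.6 and 92.1 CPM for Mir431 (2.31 unscaled), 228.7 and 238.1 for Mir127 (139.0 unscaled), 40.0 and 41.7 for Mir434 (23.4 unscaled) and 69.6 and 67.9 for Mir433 (85.4 unscaled). No paired analysis was possible because there is 1 group. Depth limits the 4 genes little, but 2 libraries give each SD 1 degree of freedom.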
